A study of Homo sapiens with 9 samples.

Results

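The nuclear-encoded subunits of respiratory complex I were 36 genes of the 57163 in the count table, taken by name from a fixed list of subunits. Each was found by matching its Ensembl gene identifier, with the version removed, to the GENCODE symbol. The study asked whether conserved-lncRNA-binding transcription factors (CLB_TFs) act on conserved lncRNAs, and the same libraries measure these protein-coding genes. All groups were 293T cells, derived from human embryonic kidney, sequenced 48 h after transfection with a lentiviral plasmid (pLV[Exp]-EGFP-EF1A) that carried the open reading frame of 1 TF behind the EF1A promoter. The CLB_TF class held NRF1, E2F4, EGR1 and ZBTB7A, the control TF class held HOXA11, RORA, TFCP2 and NKX2-8, and the last of the 9 libraries was a control, called a blank in the labels and an empty plasmid in the methods. Each condition had 1 library, so values of a TF against the control describe a pair of libraries, without replicates and without a p-value. All 8 such comparisons shared the control library.

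Complex I, or NADH:ubiquinone oxidoreductase, is the entry point of the mitochondrial respiratory chain. Its peripheral arm reaches into the mitochondrial matrix, takes electrons from NADH and passes them along iron-sulfur clusters to ubiquinone, and its membrane arm pumps protons across the inner membrane. Mitochondrial DNA encodes the core of the membrane arm, and the nucleus encodes the core of the peripheral arm and all accessory subunits. NRF1, nuclear respiratory factor 1, binds a GC-rich palindrome in the promoters of many nuclear genes for mitochondrial proteins and is known as an activator of respiratory genes, which made it the TF of first interest here.

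The NRF1 motif was searched in the RefSeq promoter windows (GRCh38.p14, 250 bases before to 50 bases after a gene's start), which held 32 of the 36 members. NDUFC2, NDUFS5, NDUFB5 and NDUFB9 had no entry. GCGCANGCG, read on both strands, was found in 10 of the 32 members (31.2%), against 2464 of 27305 genes with a window (9.02%). The palindromic core CGCATGCG was found in 5 members (NDUFS7, NDUFS6, NDUFA5, NDUFA8 and NDUFB4) and in 2.46% of all windows. Of the same protein-coding genes, 456 had the core and 9829 did not, again a share between those of all windows and the members. A match is a description of the letters and was not tested as a binding site.

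NDUFB4, an accessory subunit of the distal membrane arm, is shown because it had the most matches of any member (3) and the lowest level in the NRF1 library relative to the control library. These are the 250 bases upstream of its start (chr3:120596086-120596335, plus strand), with the matches that lie wholly upstream in capitals; the third match begins 8 bases upstream and reaches the start base.
NDUFB4: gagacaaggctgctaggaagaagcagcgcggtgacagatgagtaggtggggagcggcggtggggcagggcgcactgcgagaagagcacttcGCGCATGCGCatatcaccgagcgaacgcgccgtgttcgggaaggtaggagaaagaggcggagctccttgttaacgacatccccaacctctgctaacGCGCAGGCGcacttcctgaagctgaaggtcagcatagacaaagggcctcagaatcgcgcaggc

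A further 6 members are shown as 30-base windows around the match, in capitals and on the strand of the gene. NDUFS6, NDUFA12 and NDUFAB1 are shown because their level in the NRF1 library was under 0.8 of that in the control library, and NDUFS7, NDUFA9 and NDUFA11 because theirs was not lower. Coding exons of NDUFA9 and NDUFA11 lie in part on another annotated gene of the same strand, so their levels are uncertain. The matches begin 46, 116, 45, 74, 79 and 97 bases upstream of the start, in the order of the lines, and some members carry the motif in its reverse orientation.
NDUFS6: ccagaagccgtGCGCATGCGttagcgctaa
NDUFA12: gacctagctctGCGCACGCGcagagccacc
NDUFAB1: gccgtgtgcgtCGCCTGCGCgccgccggaa
NDUFS7: gttccggtttcCGCATGCGCtccgagccgc
NDUFA9: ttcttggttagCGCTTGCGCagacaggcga
NDUFA11: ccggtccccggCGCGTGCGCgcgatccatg

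Library totals were 14177970 to 18915400 counts, and levels are given as CPM, the count relative to the library total scaled by the trimmed mean of edgeR (TMM). NRF1 had 40632 counts in the NRF1 library and 394 to 556 in the other 8. The control library stood apart by its TFCP2 counts: 264495 with TFCP2, 653 to 703 with the other TFs, but 9812 in the control library. PAX2 and LIN28B, markers of the 293T line, summed to 88.0 to 106 CPM in every library, while the leukocyte, fibroblast and hepatocyte markers summed to at most 4.91, 6.52 and 1.44 CPM. In bulk RNA, a lower level in every cell and a lower level in a share of the cells cannot be told apart.

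Among the 36 members, 34 had a mean of at least 1 CPM over the 9 libraries. NDUFV2 (3 to 16 counts) and NDUFA7 (3 to 9 counts) did not. In 7 members, coding exons lay in part on another annotated gene of the same strand: NDUFA11, NDUFA13, NDUFA9, NDUFC2, NDUFA7, NDUFV2 and NDUFB8, with 37.2% to 85.2% of the coding exon length shared. These 7 had mean levels of 0.379 to 18.6 CPM and were the 7 lowest members, whereas the other 29 ranged from 27.4 to 247 CPM. Their levels are therefore uncertain, and whether overlap lowered the counts was not tested. Per kilobase of exon, on the CPM scale, the highest mean levels were those of NDUFS5 (300.03), NDUFB10 (214), NDUFB7 (170.2) and NDUFA1 (130.1).

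The 36 members summed to 2586 CPM in the NRF1 library, 2740, 2794 and 2710 CPM with E2F4, EGR1 and ZBTB7A, 2862, 2836, 2803 and 2911 CPM with HOXA11, RORA, TFCP2 and NKX2-8, and 3007 CPM in the control library. On this scale the NRF1 library was the lowest of the 9 and the control library the highest. On library totals without TMM, the sum was 2789 CPM with NRF1, above the E2F4, ZBTB7A, RORA and TFCP2 libraries (2712 to 2767 CPM), and 2924 CPM in the control library, still the highest. The median log2 fold change of the 36 members against the control library was -0.20 in the NRF1 library, -0.13, -0.09 and -0.13 with E2F4, EGR1 and ZBTB7A, and -0.06, -0.09, -0.12 and -0.06 with HOXA11, RORA, TFCP2 and NKX2-8. In the 13983 genes of the table at 1 CPM or more on average, the median was -0.04 with NRF1 and between -0.035 and -0.001 in the others. Against the shared control library, the median of the members was below that of all genes in all 8 libraries. With the other 7 TF libraries averaged as the reference it was below with NRF1, E2F4 and TFCP2 and above with EGR1, ZBTB7A, HOXA11, RORA and NKX2-8, so this direction turned in 5 of 8 (largest difference from all genes 0.10, with NKX2-8; -0.08 with NRF1).

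**Figure D1:**
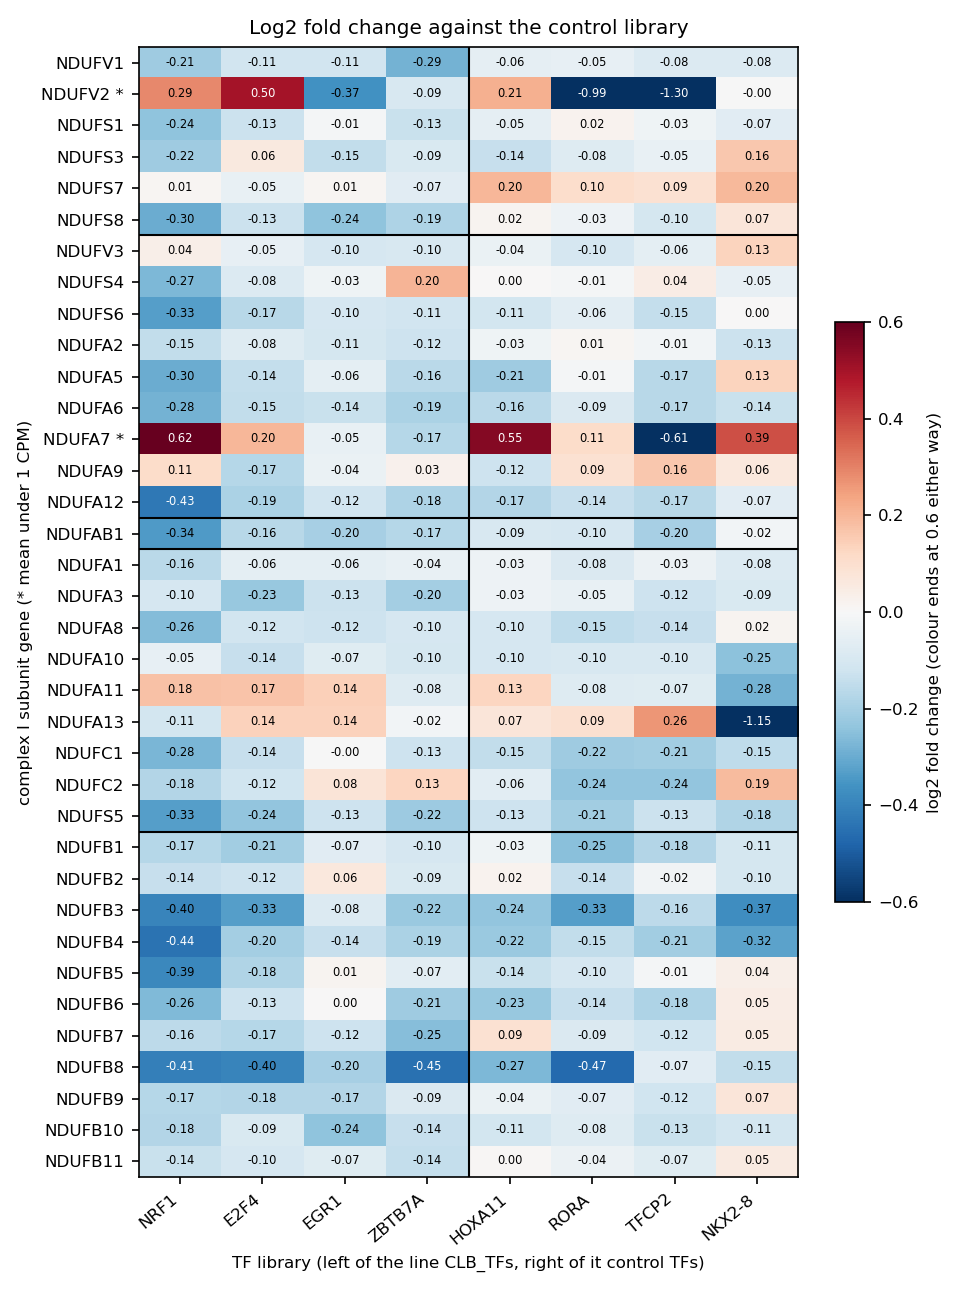
Log2 fold change of each of the 36 members (rows, grouped by the lines into core subunits of the peripheral arm, its accessory subunits, NDUFAB1, and accessory subunits of the proximal and the distal membrane arm) in each TF library (columns) against the control library. The NRF1 column is blue in 30 of 36 rows, and those of E2F4, EGR1 and ZBTB7A in 31, 29 and 33. The columns of HOXA11, RORA, TFCP2 and NKX2-8 are blue in 26, 30, 32 and 21 rows. The strongest colours outside the NRF1 column belong to NDUFV2, NDUFA7 and NDUFA13, which have few counts.

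In the NRF1 library, 8 of the 34 members at 1 CPM or more were at or below 0.8 of their level in the control library, against 10.1% of all genes. None was higher by the inverse factor, against 17.8% of all genes. At 2-fold, no member was called in either direction, where 4.46% of all genes were higher and 0.179% lower. The ratio of the NRF1 to the control library had a 95% interval below 1 in 25 of the 34 members, against 29.1% of all genes, and above 1 in none, against 19.6%. These exact binomial intervals cover counting error only. Without TMM, on library totals, 0 members were at or below 0.8 and the median of the members was -0.05, while the median of all genes moved to 0.11 and the members' medians with E2F4, ZBTB7A, RORA and TFCP2 (-0.10, -0.06, -0.08 and -0.10) were lower than with NRF1. The members lay 0.16 below all genes with NRF1 on either scale. When the mean of the other 7 TF libraries served as the reference, the median of the members in the NRF1 library was -0.12, and 1 member was at or below 0.8.

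In the NRF1 library 55.4% of all genes had a log2 fold change below 0, which is the background for the counts of lower genes that follow. Most members were below 0 in every TF library: 30 of 36 with NRF1, and from 21 (NKX2-8) to 33 (ZBTB7A) with the others. Of the 13983 genes, 7019 (RORA) to 8030 (ZBTB7A) were below 0 in the other TF libraries. A count of lower members is therefore not particular to NRF1. The core subunits of the peripheral arm carry the flavin and the iron-sulfur clusters. Of the 5 at 1 CPM or more, 4 were lower in the NRF1 library, none to 0.8 or below, with a median log2 fold change of -0.22. NDUFS8, which holds iron-sulfur clusters close to the quinone site (gene at GRCh37 chr11:67798084-67804111, plus strand), had 111 CPM with NRF1, 125, 116 and 119.9 CPM with E2F4, EGR1 and ZBTB7A, 138, 134, 127 and 144 CPM with HOXA11, RORA, TFCP2 and NKX2-8, and 137 CPM in the control library. Its NRF1 level was the lowest of the 9, and its ratio to the control library was 0.813 (95% interval 0.765 to 0.865). NDUFS7, which binds the terminal iron-sulfur cluster, was not lower. It had 106 CPM with NRF1, 102, 106 and 100.1 CPM with E2F4, EGR1 and ZBTB7A, 120.2, 113, 112 and 120.1 CPM with HOXA11, RORA, TFCP2 and NKX2-8, and 105 CPM in the control library. The NDUFS7 ratio with NRF1 was 1.01 (0.943 to 1.08), although its promoter window held the palindromic core. NDUFV1, the NADH-binding subunit, NDUFS1 and NDUFS3 had NRF1 to control ratios of 0.862, 0.846 and 0.861, with intervals below 1. NDUFV2 had 12 counts with NRF1 and 11 in the control library, too few to place it.

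Of the 9 accessory subunits of the peripheral arm, 8 had at least 1 CPM and 6 were lower in the NRF1 library, 2 of them at 0.8 or below, and the median was -0.28. NDUFA12, an accessory subunit beside the NADH-oxidizing module (GRCh37 chr12:95290831-95397546, minus strand), had 43.2 CPM with NRF1, 50.9, 53.7 and 51.2 CPM with E2F4, EGR1 and ZBTB7A, 51.6, 52.9, 51.8 and 55.4 CPM with HOXA11, RORA, TFCP2 and NKX2-8, and 58.2 CPM in the control library. The NRF1 library lay below all others, and the ratio was 0.743 (0.674 to 0.818). NDUFS6, a zinc-binding subunit, had 60.3 CPM with NRF1, 67.6, 70.6 and 70.1 CPM with E2F4, EGR1 and ZBTB7A, 70.3, 72.5, 68.5 and 76.0 CPM with HOXA11, RORA, TFCP2 and NKX2-8, and 75.8 CPM in the control library. Here too NRF1 was lowest, with a ratio of 0.795 (0.732 to 0.864). NDUFA5, which sits near the quinone module, had 63.2 CPM with NRF1, 70.4, 74.7 and 69.4 CPM with E2F4, EGR1 and ZBTB7A, 67.0, 77.0, 69.2 and 85.3 CPM with HOXA11, RORA, TFCP2 and NKX2-8, and 77.7 CPM in the control library. Its ratio was 0.813 (0.749 to 0.882), and NKX2-8 was the highest library.

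NDUFA9, a nucleotide-binding subunit with a reverse-oriented motif, had 13.1 CPM with NRF1, 10.7, 11.7 and 12.3 CPM with E2F4, EGR1 and ZBTB7A, 11.1, 12.9, 13.5 and 12.6 CPM with HOXA11, RORA, TFCP2 and NKX2-8, and 12.1 CPM in the control library. With 207 counts against 222, its interval (0.891 to 1.31) included 1, and its coding exons are 64.4% shared. NDUFA7 had the largest log2 fold change of any member with NRF1 (0.62), but from 9 counts with NRF1, 7, 5 and 4 counts with E2F4, EGR1 and ZBTB7A, 9, 6, 3 and 7 counts with HOXA11, RORA, TFCP2 and NKX2-8, and 6 counts in the control library, with an interval of 0.553 to 5.94. NDUFS4, whose loss causes Leigh syndrome, was lowest with NRF1 (23.0 CPM) and highest with ZBTB7A (31.9 CPM), against 27.7 CPM in the control library. NDUFA2 and NDUFA6 were also lowest with NRF1, at ratios of 0.903 and 0.822, and NDUFV3 was at 1.03 (0.943 to 1.11).

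NDUFAB1 is the mitochondrial acyl carrier protein, which sits in both arms and also serves fatty acid and lipoic acid synthesis (GRCh37 chr16:23592323-23607677, minus strand). It had 72.1 CPM with NRF1, 81.5, 79.4 and 81.2 CPM with E2F4, EGR1 and ZBTB7A, 85.6, 85.1, 79.5 and 90.4 CPM with HOXA11, RORA, TFCP2 and NKX2-8, and 91.3 CPM in the control library. The NRF1 level was below all 8 others, at a ratio of 0.789 (0.731 to 0.851).

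Among the 9 accessory subunits of the proximal membrane arm, 8 were lower in the NRF1 library and 1 of them, NDUFS5, at 0.8 or below; the median was -0.16. NDUFS5, on the intermembrane-space side (GRCh37 chr1:39491990-39500308, plus strand), had 147 CPM with NRF1, 157, 169.5 and 159 CPM with E2F4, EGR1 and ZBTB7A, 169.7, 160.1, 169 and 163 CPM with HOXA11, RORA, TFCP2 and NKX2-8, and 185 CPM in the control library. The control library was above all TF libraries, and the NRF1 ratio was 0.794 (0.753 to 0.837). NDUFA8, also on that side, had 58.7 CPM with NRF1, 64.8, 64.6 and 65.6 CPM with E2F4, EGR1 and ZBTB7A, 65.6, 63.2, 63.8 and 71.1 CPM with HOXA11, RORA, TFCP2 and NKX2-8, and 70.3 CPM in the control library, a ratio of 0.835 (0.767 to 0.909).

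NDUFA3, a membrane-spanning subunit whose window held 2 matches, had 56.2 CPM with NRF1, 51.4, 55.1 and 52.3 CPM with E2F4, EGR1 and ZBTB7A, 58.9, 58.3, 55.2 and 56.5 CPM with HOXA11, RORA, TFCP2 and NKX2-8, and 60.2 CPM in the control library. NRF1 lay in the middle of its 9 libraries, and the interval (0.854 to 1.02) included 1. NDUFA11, another membrane-spanning subunit, was the 1 member of the 34 that was highest with NRF1: 12.5 CPM, with 12.5, 12.2 and 10.5 CPM with E2F4, EGR1 and ZBTB7A, 12.1, 10.5, 10.5 and 9.09 CPM with HOXA11, RORA, TFCP2 and NKX2-8, and 11.1 CPM in the control library (ratio 1.13, interval 0.926 to 1.38). It was not highest under DESeq2 size factors, and its coding exons are 37.2% shared.

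NDUFA13, also known as GRIM-19, had 43 counts with NRF1, 58, 52 and 42 counts with E2F4, EGR1 and ZBTB7A, 52, 52, 62 and 19 counts with HOXA11, RORA, TFCP2 and NKX2-8, and 54 counts in the control library. Only the NKX2-8 library stood low, at a ratio of 0.429 (0.240 to 0.736), which made it the 1 member past 2-fold in any TF library among the 34. Its coding exons were shared over 55.2% of their length with a gene that had 12 to 23 counts. NDUFA1, NDUFA10, NDUFC1 and NDUFC2 had NRF1 ratios of 0.895, 0.968, 0.825 and 0.884.

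All 11 accessory subunits of the distal membrane arm were lower in the NRF1 library, as were 55.4% of all genes, 4 of them at 0.8 or below, with a median of -0.18. All 11 were also lower with E2F4 (median -0.18), ZBTB7A, RORA and TFCP2. With EGR1, HOXA11 and NKX2-8, 8, 8 and 6 of them were lower. NDUFB4 (GRCh37 chr3:120315156-120321347, plus strand) had 105 CPM with NRF1, 124, 130.1 and 125 CPM with E2F4, EGR1 and ZBTB7A, 123, 129, 124 and 115 CPM with HOXA11, RORA, TFCP2 and NKX2-8, and 143 CPM in the control library. NRF1 was the lowest and the control library the highest, with a ratio of 0.736 (0.691 to 0.782). NDUFB3, a small membrane-spanning subunit, had 46.5 CPM with NRF1, 48.7, 57.9 and 52.6 CPM with E2F4, EGR1 and ZBTB7A, 52.0, 48.8, 55.0 and 47.3 CPM with HOXA11, RORA, TFCP2 and NKX2-8, and 61.3 CPM in the control library. Its NRF1 ratio was 0.759 (0.691 to 0.833), and the E2F4, RORA and NKX2-8 libraries were at similar ratios of 0.794, 0.795 and 0.771.

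NDUFB5, another membrane-spanning subunit, had 35.2 CPM with NRF1, 40.6, 46.5 and 44 CPM with E2F4, EGR1 and ZBTB7A, 41.9, 43.0, 45.7 and 47.2 CPM with HOXA11, RORA, TFCP2 and NKX2-8, and 46.0 CPM in the control library. NRF1 was below all others, at a ratio of 0.764 (0.685 to 0.851). NDUFB8, whose coding exons are 85.2% shared, had 14.1 CPM with NRF1, 14.3, 16.4 and 13.8 CPM with E2F4, EGR1 and ZBTB7A, 15.6, 13.6, 17.9 and 17.0 CPM with HOXA11, RORA, TFCP2 and NKX2-8, and 18.8 CPM in the control library. It was lowest with RORA (0.723, interval 0.608 to 0.857), and the NRF1 ratio was 0.751 (0.632 to 0.891). The other 7 distal subunits had NRF1 ratios of 0.832 for NDUFB6, 0.885 for NDUFB10, 0.886 for NDUFB1, 0.887 for NDUFB9, 0.895 for NDUFB7 and 0.910 for NDUFB2 and NDUFB11.

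**Figure D2:**
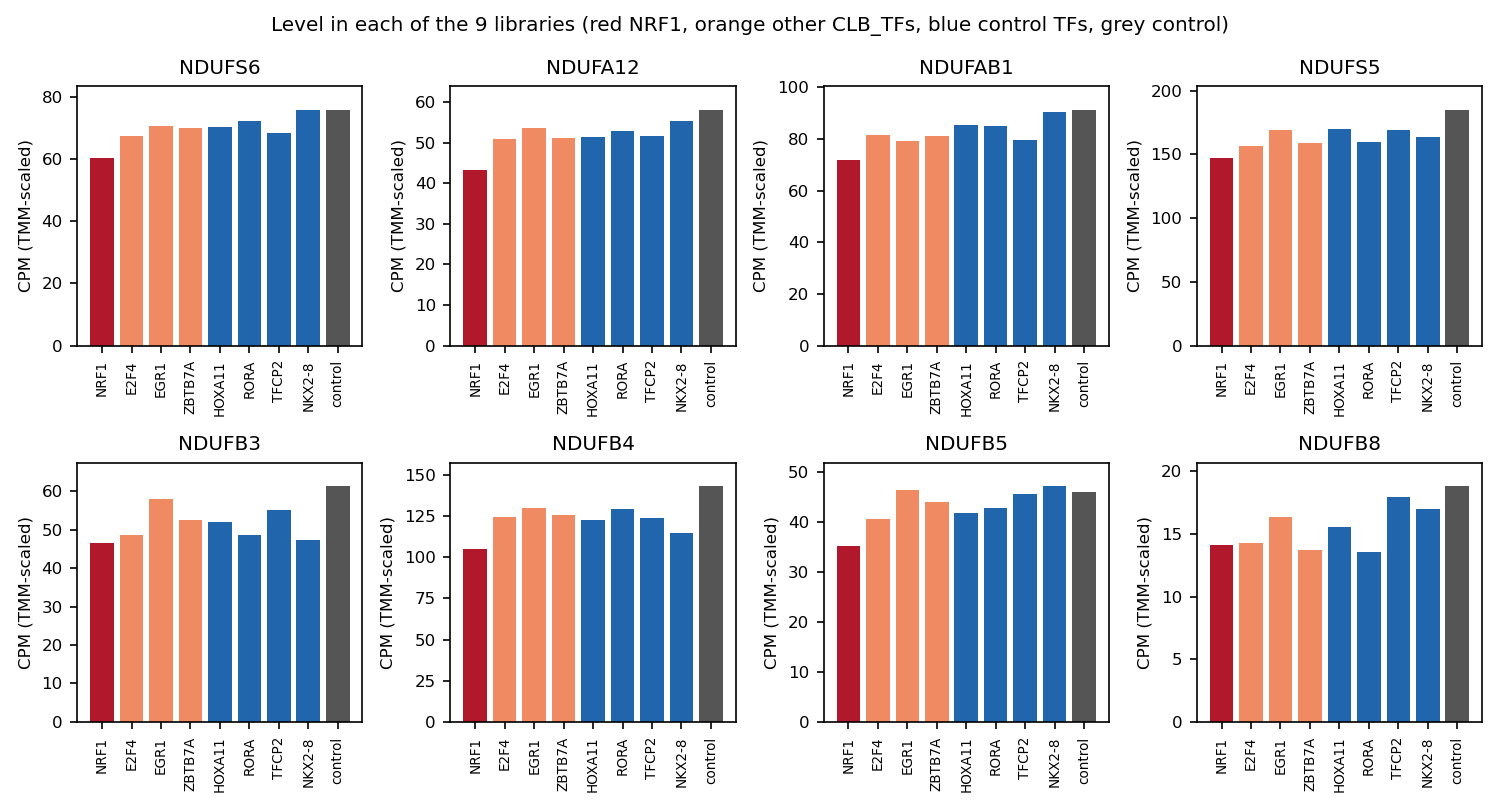
Level in CPM (bars, from 0) of the 8 members at or below 0.8 of the control level with NRF1 in each of the 9 libraries, 1 library per bar. NDUFB4 stands at 105 CPM with NRF1 and 143 CPM in the control library, and in NDUFB8 the ZBTB7A and RORA bars are below that of NRF1.

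Against the other libraries rather than the control library alone, the NRF1 library was the lowest of the 9 for 18 of the 34 members, where it was the lowest for 25.8% of all genes, and the lowest of the 8 TF libraries for 18, against 26.5% of all genes. It was the highest for 1 member, against 16.2% of all genes. The control library was the highest for 14 members (12.8% of all genes) and the NKX2-8 library for 11 (16.4%). On library totals, NRF1 was lowest for 6 members, against 9.7% of all genes.

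At the same limit of 0.8, the other TF libraries had few members below the control library. There were 2 with E2F4 (NDUFB3 and NDUFB8, with 5.84% of all genes lower), 0 with EGR1 (4.51%), 1 with ZBTB7A (NDUFB8, 6.57%), 0 with HOXA11 (5%), 2 with RORA (NDUFB3 and NDUFB8, 5.21%), 0 with TFCP2 (3.5%) and 2 with NKX2-8 (NDUFA13 and NDUFB3, 11.9%). NDUFV2 had the largest change with E2F4, EGR1, RORA and TFCP2, on 16, 7, 4 and 3 counts against 11 in the control library, and NDUFA7 the largest with HOXA11.

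The members were short genes. Their median exon length was 2131 bases, against 5206 bases for the 12626 protein-coding genes tested, and 17 of the 36 fell in the shortest of 10 equal length bins (207 to 2251 bases). In the NRF1 library, the median log2 fold change was -0.13 in that bin and 0.03 in the longest. After the median of the same bin was subtracted from each member, the median of the members was -0.11 with NRF1, and 1 member was at or below 0.8.

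Of the 30 members with a promoter window and at least 1 CPM, the 10 with the NRF1 motif had a median log2 fold change of -0.28 in the NRF1 library (-0.44 to 0.18), and the 20 without it -0.19 (-0.41 to 0.04). These ranges overlap over most of their length. Over the protein-coding genes tested that had a window, the median was -0.09 in 1764 genes with the motif and -0.05 in 8521 without it. YY1, a zinc finger TF that also regulates respiratory genes, has the motif AAGATGGCG, which was found in 6 members (NDUFS7, NDUFS4, NDUFA6, NDUFA7, NDUFA9 and NDUFB8) and in 2.14% of all windows, in each of the 6 members downstream of the start. The ETS motif of GABPA, CCGGAAGT, was found in NDUFS1 and NDUFA13 (4.95% of all windows), and an E2F motif (TTTCCCGC, TTTGGCGC or TTTCGCGC) in NDUFS6, NDUFA13 and NDUFC1 (9.38% of the 32, against 3.30% of all windows). Among protein-coding genes tested with a window, 482, 1024 and 581 had the YY1, GABPA and E2F motifs, and 9803, 9261 and 9704 did not. Each of these shares was above that of all windows, and for GABPA it was also above that of the members. The motifs of EGR1 (GCGTGGGCG) and ESRRA (TCAAGGTCA) were in none of the 32.

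**Figure D3:**
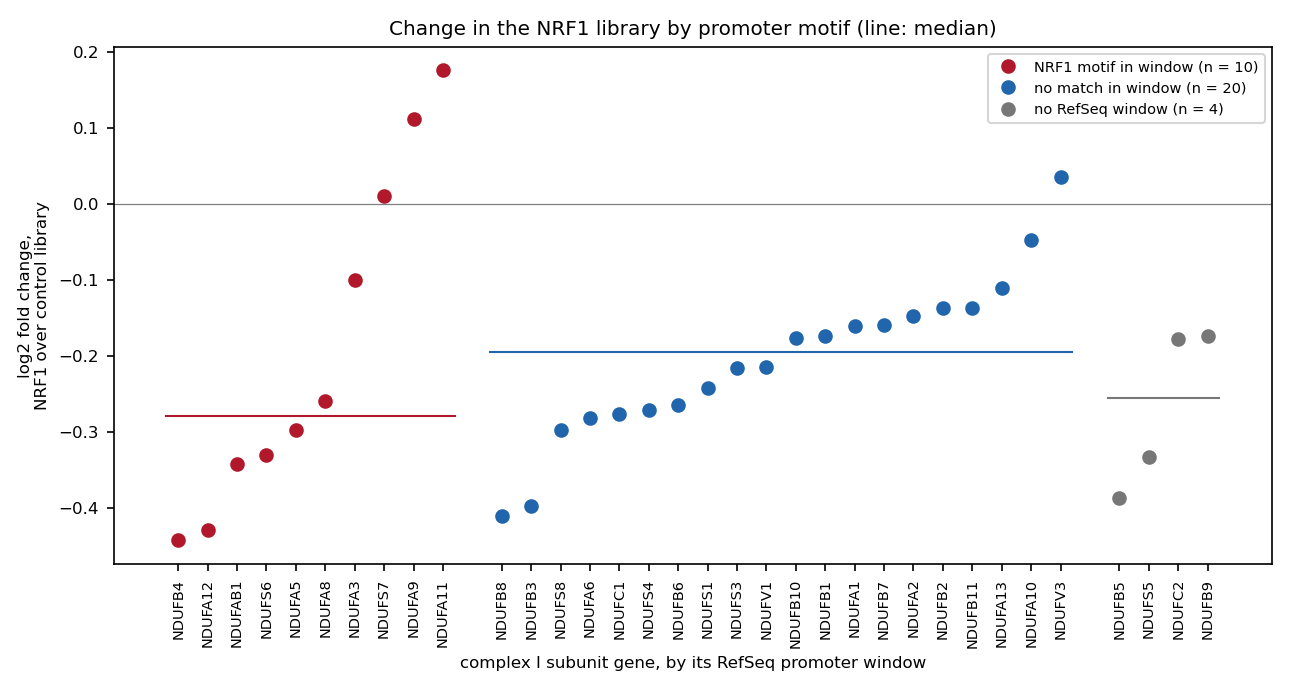
Log2 fold change of the 34 members at 1 CPM or more in the NRF1 library against the control library, in 3 sets: 10 with the NRF1 motif in the RefSeq promoter window, 20 with a window and no match, and 4 with no window (grey); lines are medians. NDUFB4 and NDUFA12 are the lowest of the 10 members with the motif, and NDUFA9 and NDUFA11, which have shared coding exons and uncertain levels, the highest.

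The TF classes were compared gene by gene, with the 4 TFs of a class in the place of replicates, so that the spread was that between TFs. By edgeR's quasi-likelihood test with Benjamini-Hochberg adjustment over 15012 genes, 6 genes were called (0.04%), all higher in the CLB_TF libraries, and 0 of 34 members. The count of all genes moved with the fit: DESeq2's Wald test called 108 higher and 34 lower, and leaving out 1 TF library gave 0 to 59 higher, the 59 when EGR1 was left out. At an unadjusted p under 0.05, 3 members passed, against 10.2% of all genes tested, and DESeq2's Wald test also called 0 members. NDUFS8 averaged 118 ± 5.94 CPM in the CLB_TF libraries and 136 ± 7.01 CPM in the control TF libraries (SD, n = 4 each), a log2 fold change of -0.19 (SE 0.056, adjusted p = 0.285 by edgeR). NDUFS7 averaged 103 ± 2.85 CPM in the CLB_TF libraries and 116 ± 4.67 CPM in the control TF libraries, with -0.16 (SE 0.051, adjusted p = 0.344 by edgeR). NDUFB7, a subunit on the intermembrane-space side, averaged 84.7 ± 3.23 CPM with the CLB_TFs and 94.8 ± 6.66 CPM with the control TFs, with -0.15 (SE 0.062, adjusted p = 0.436 by edgeR). NDUFA11 was higher by 0.19 in the CLB_TF libraries (SE 0.116, adjusted p = 0.604 by edgeR).

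In 5 members (NDUFV1, NDUFS7, NDUFS8, NDUFB7 and NDUFB11) all 4 CLB_TF libraries lay below all 4 control TF libraries, as they did for 4.6% of all genes, and in no member above them. The groups overlapped in the other members at 1 CPM or more. Over the 34 members the median log2 fold change between the classes was -0.06, against 0.00 over all genes tested, and it was -0.02 without the NRF1 library.

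**Figure D4:**
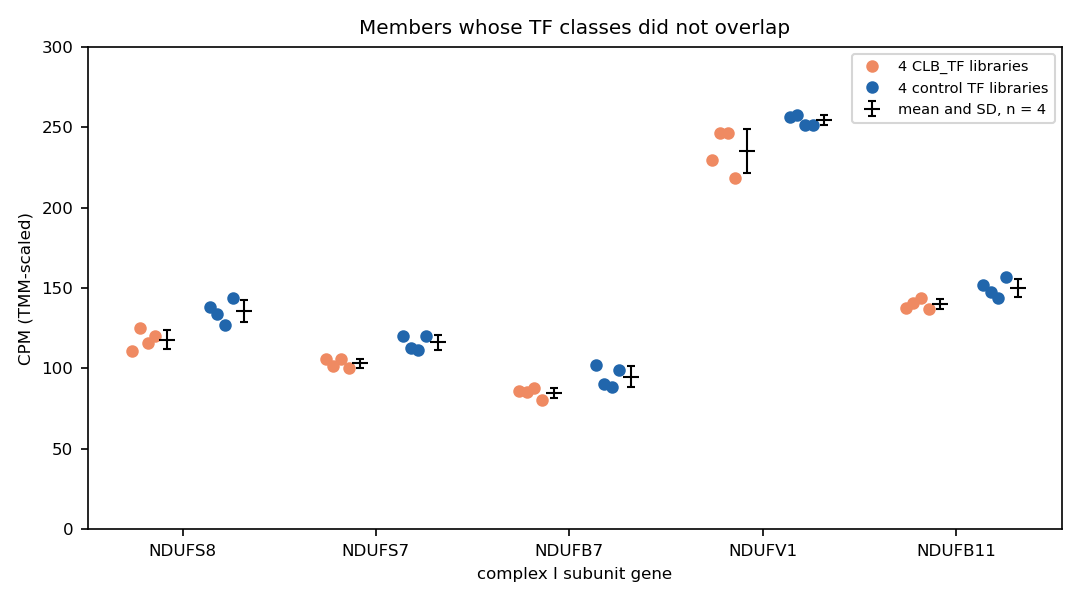
CPM of the 5 members whose TF classes did not overlap, with 1 point per library, CLB_TF libraries (orange) left of control TF libraries (blue), and the mean and SD of each class (n = 4). NDUFS8 averaged 118 CPM in the CLB_TF and 136 CPM in the control TF libraries, and no member passed the adjusted test.

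Other genes of the pathway were taken from lists by role. Of 18 complex I assembly factors, which build the complex and are not part of it, 16 were lower in the NRF1 library than in the control library (55.4% of all genes). Of these, 1 was at 0.8 or below (10.1% of all genes), and the median of the 18 was -0.14. With E2F4, 16 were lower as well, and with the other TFs from 8 (NKX2-8) to 15 (EGR1). In the NRF1 library, NDUFAF2, an assembly factor of the peripheral arm, and NUBPL, which delivers iron-sulfur clusters, had the lowest log2 fold changes (-0.48 and -0.31). NDUFAF1 and NDUFAF5 had the highest (0.22 and 0.18). The 7 mitochondrially encoded subunits were all lower with NRF1 (55.4% of all genes), 3 at 0.8 or below (10.1% of all genes), with a median of -0.31. All 7 were lowest in that library (25.8% of all genes), and their median was 0.51 in the NKX2-8 library. They summed to 11766 CPM with NRF1, 18983 CPM with NKX2-8 and 14639 CPM in the control library.

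All 39 nuclear subunits of complexes II to V that were listed were lower with NRF1 (55.4% of all genes), 7 of them at 0.8 or below (10.1% of all genes). With the other TFs, from 28 (NKX2-8) to 38 (TFCP2) of the 39 were lower, all on the TMM scale. Their median with NRF1 was -0.22, close to the -0.20 of the complex I members, and the difference between the lists was not tested. UQCRC2, a core protein of complex III, and ATP5F1A, the alpha subunit of ATP synthase, were the lowest at -0.38 and -0.36. Among 12 regulators of respiratory genes, NRF1 itself had a log2 fold change of 6.42 in its library, the GABP subunit GABPB2 0.85 and the coactivator PPARGC1A 0.62, while the mitochondrial rRNA methyltransferase TFB1M had -0.50 and TFAM, which packages mitochondrial DNA, -0.28. TFB1M was also lower in the other 7 TF libraries, at -0.51 to -0.29, and GABPB2 and PPARGC1A were higher in the other 7, at 0.07 to 0.77 and 0.13 to 0.38.

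**Figure D5:**
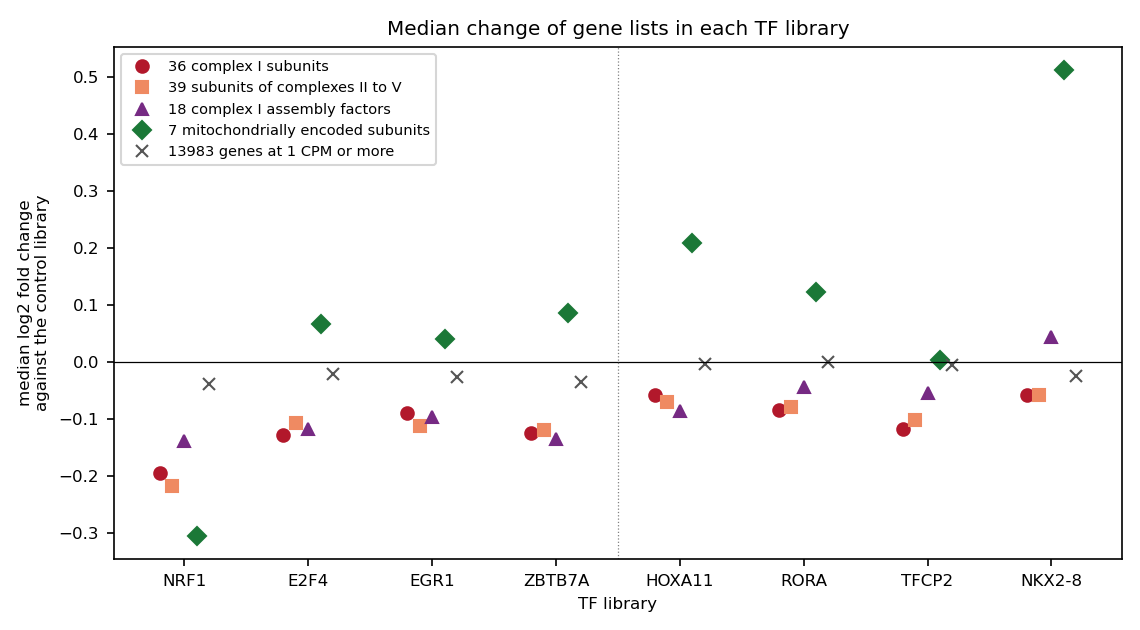
Median log2 fold change against the control library (vertical axis) of the complex I members, complexes II to V, assembly factors, mitochondrially encoded subunits and all genes at 1 CPM or more, in each TF library; CLB_TFs lie left of the dotted line. The members lie at -0.20 with NRF1, where all genes lie at -0.04, and the mitochondrially encoded subunits reach 0.51 with NKX2-8.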

How the data were processed

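Reads were quality-checked (FastQC 0.11.2), aligned to GRCh37 (STAR 2.6.0c) and, where unique, assigned to genes (featureCounts 1.6.3) by the authors, per the submitters' processing notes. The deposited table held raw, unnormalized counts of 57163 genes in 9 libraries. The labels name TRIzol extraction and a directional kit, and the methods miRNeasy. Whether counting used strand is not stated in the paper, labels or file, so overlapping genes are uncertain. Symbols (35408 matched) and overlaps came from GENCODE v44lift37.

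TMM factors came from edgeR 4.0.16 under R 4.3.3, and log2 fold changes used a prior count of 2. A gene was tested at a mean of at least 1 CPM and counted as lower at 0.8 of the control level or below (higher at the inverse), and again at 2-fold. Ratios have exact conditional binomial 95% intervals. The 4 CLB_TF and 4 control TF libraries were compared with edgeR's quasi-likelihood test after filterByExpr, at an adjusted p of 0.05. On simulated counts of 15012 genes for that comparison, with 200 genes changed, it recovered 20% of genes changed by the inverse of 0.8, and 56%, 78% and 94% of those changed 1.5-fold, 2-fold and 4-fold, and called 12 unchanged genes. DESeq2 1.42.0, library totals, other references and leaving out each TF library were alternatives. Motifs were exact matches on both strands in RefSeq windows.

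Values in all libraries are given for the 8 members with the largest change with NRF1, the 3 with the largest change between classes, the most changed member of each other TF library, any member past 1.5-fold in a TF library and members with the NRF1 motif. In lists of more than 12 genes the 2 largest rises and falls with NRF1 are named. Other members are named to account for all 36. The members and lists were chosen with earlier results of these data known.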

Additional observations from a re-analysis of the deposited data

Results flagged for a closer look

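Within a TF class, a library was flagged where its gap to the nearest of the other 3, divided by the range of the 4, was above Dixon's 95% critical value for 4 values. Of 74 values tested (each of the 36 members and their sum, in both classes), 5 were flagged, where chance flags about 1 in 20. NDUFA1 was at 92.9 CPM in the NRF1 library and 99.9 to 101 CPM in the other CLB_TF libraries. NDUFA8 was at 58.7 CPM in the NRF1 library and 64.6 to 65.6 CPM in the others of its class. NDUFA10 was at 99.2 CPM in the NKX2-8 library and 109.8 to 110.0 CPM in the other control TF libraries. NDUFA11 was at 10.5 CPM in the ZBTB7A library and 12.2 to 12.5 CPM in the others. NDUFB9 was at 148 CPM in the ZBTB7A library and 139.5 to 139.9 CPM in the others. What set these libraries apart was not tested.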

How the results depend on the processing

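On library totals, the median log2 fold change of the members was -0.047 with NRF1, -0.043 with EGR1, -0.055 with ZBTB7A and -0.029 with NKX2-8. There, 0 members were at or below 0.8 of the control level and 1 was higher with NRF1, and 1 was lower with E2F4. On this scale NRF1 was lowest for 6 members (9.68% of all genes) and highest for 5 (29.6% of all genes). The control library was highest for 9 members (7.05% of all genes), and 1 gene was called higher between the classes. With the mean of the other 7 TF libraries as reference, the medians were -0.119 with NRF1, -0.026 with E2F4, 0.020 with EGR1, -0.020 with ZBTB7A, 0.028 with HOXA11, 0.014 with RORA, 0.0021 with TFCP2 and 0.086 with NKX2-8, and the counts of lower members were 1 with NRF1 and 0 with E2F4, ZBTB7A and RORA. With the median of the same length bin subtracted, the medians were -0.109 with NRF1, -0.075 with E2F4, -0.030 with EGR1, -0.051 with ZBTB7A, -0.052 with RORA and -0.074 with TFCP2, and the counts were 1 with NRF1, 0 with E2F4 and 1 with RORA. In the 29 members whose coding exons were not shared (chosen after seeing the data), the medians were -0.241 with NRF1 and -0.094 with HOXA11, the counts were 1 with E2F4, 0 with ZBTB7A, 1 with RORA and 1 with NKX2-8, and NRF1 was highest for 0. With the median of all genes subtracted, also chosen after seeing the data, 5 members were lower with NRF1 and 1 with E2F4, on TMM and on totals alike. With no minimum level, 1 member was higher with NRF1, 1 lower with EGR1, 2 lower with TFCP2, and NRF1 was highest for 2 (21.2% of all genes). A minimum of 5 CPM left 1 member lower with NKX2-8. DESeq2 size factors gave 1 lower with E2F4 and NRF1 highest for 0 (16.0% of all genes). Among the 8 TF libraries NRF1 was highest for 2 (16.8% of all genes). Between the classes, 722 genes were called higher and 73 lower with no filter, and 108 higher and 34 lower by DESeq2's Wald test. Leaving out 1 TF library gave 0 to 59 genes higher and 0 to 1 lower, with 59 and 1 without EGR1, 21 without E2F4, 16 without ZBTB7A, 1 without NRF1 and 0 without each control TF in turn. No member was called by the class test under any of these. The core motif was found in 5 members in place of 10. The cause of these shifts was not tested. No paired analysis was possible because each condition had 1 library and the labels give no shared replicate numbers. With 1 library per condition, the spread between libraries of a condition is unknown. Counting error alone left the interval of the ratio including 1 in 9 of 34 members with NRF1 and in 11 to 23 with the other TFs, and NDUFV2, NDUFA7 and NDUFA13 had few counts.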
